A study of Homo sapiens with 9 samples.

Results

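CD74 and 8 further genes of the MHC class II pathway were followed across A549 cells that carried 1 of 3 kinds of plasmid. The 9 genes were CD74, CIITA, RFX5, HLA-DRA, HLA-DRB1, HLA-DPA1, HLA-DMA, HLA-DMB and CTSS, taken by their symbols from a count table of 58735 genes. They were named with values of these libraries already known, including the low CD74 level of the LINC00996 group, so their levels and differences are described without a test. All 9 had a row in the table, 8 had a count in at least 1 library, 7 exceeded 3 counts in some library, and 6 passed the filter on low counts. HLA-DRA, HLA-DRB1 and HLA-DPA1 did not pass it.

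MHC class II molecules carry peptides from endosomes to the cell surface, where CD4+ T cells read them. CD74, the invariant chain, binds newly made class II dimers, fills their groove and steers them to endosomes, where proteases such as cathepsin S trim it down to a short remnant that HLA-DM then exchanges for antigenic peptide. The genes of the class II chains, CD74 and HLA-DM are switched on together by the transactivator CIITA, which RFX, CREB and NF-Y factors hold at the promoters and which interferon-gamma induces in cells that are not professional antigen-presenting cells. CD74 on the cell surface is also a receptor for the cytokine MIF.

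A549 is an established line of human lung adenocarcinoma cells. It was transfected with jetPRIME and a PC3 control plasmid, a plasmid for the long non-coding RNA (lncRNA) LINC00996 or a plasmid for the lncRNA AP001189.3, with 3 poly(A) RNA-seq libraries per group. The controls are labelled with a plasmid each (PC3.1, PC3.2, PC3.3), the study's text names PC3.1 alone, and the time between transfection and extraction is not given in the sources used here. The sources speak of triplicate extraction and do not say whether transfections were separate, so the p-values measure the spread between these libraries, which may be technical.

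Library totals ran from 15272450 to 18125447 counts, and the 3 counts taken as the floor correspond to 0.166 to 0.196 CPM (counts scaled to library size, with TMM factors over the 9 libraries). LINC00996 had 4 to 9 counts in the control libraries and 4373 to 5952 in its own group, and AP001189.3 had 0 to 2 and 1660 to 2378, which is the order the labels give. LINC00996 replicate 1 stood apart from replicates 2 and 3 of its group. The mean chi-square distance per gene was 20.1 and 29.7 for its pairs, 3.13 for the other pair, and at most 6.7 within the other groups. The 5 epithelial markers were above the floor in every group, with a summed level of 6730 to 9100 CPM, most of it from KRT8 and KRT18. Within this list CDH1 was 1.86-fold and KRT19 1.32-fold lower with LINC00996 than in control (adjusted p = 2.92e-05 and 0.0256, edgeR). EPCAM, KRT8 and KRT18 had log2 fold changes of 0.28, 0.30 and 0.09 that did not pass the test, with each LINC00996 library above the controls. The part of these markers in the results was not tested. The 10 leukocyte markers, of which 4 or 5 were above the floor in a group, summed to 15.3 to 21.9 CPM, with the range of the LINC00996 group (16.1 to 20.1) inside that of the others. Most of that sum came from CD14, at 7.51 to 13.9 CPM, and ITGAX, at 4.33 to 7.41 CPM. CD79A (up to 14 counts), CSF1R (up to 12) and CD3E (4 counts in 1 control library) were above the floor in some libraries, and PTPRC, MS4A1, CD1C and LYZ were at or below it in every group. The 5 alveolar type 2 markers were nearly absent. They summed to 0.0634 to 0.219 CPM with LINC00996, with 5 of 5 at or below the floor, and to 0.311 to 0.78 CPM in the other groups, and their part in the results was not tested.

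Between genes, levels were compared on the authors' FPKM values, which divide by gene length. In the control group, CTSS was the highest of the 9 genes at 93.7 ± 2.54 FPKM (SD, n = 3), followed by RFX5 at 19.6 FPKM, CD74 at 4.59 ± 0.468 FPKM and HLA-DMA at 2.02 ± 0.353 FPKM. HLA-DMB followed at 0.895 ± 0.288 FPKM and CIITA at 0.144 FPKM. The control libraries of neighbouring genes in this order of 6 did not overlap. In the LINC00996 group CD74 dropped below both HLA-DM genes in this order, with 0.176 ± 0.131 FPKM against 2.17 for HLA-DMA and 1.78 for HLA-DMB. In the AP001189.3 group the order of the 6 genes was that of the control group, and CD74 stood at 4.60 ± 1.24 FPKM.

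**Figure D1:**
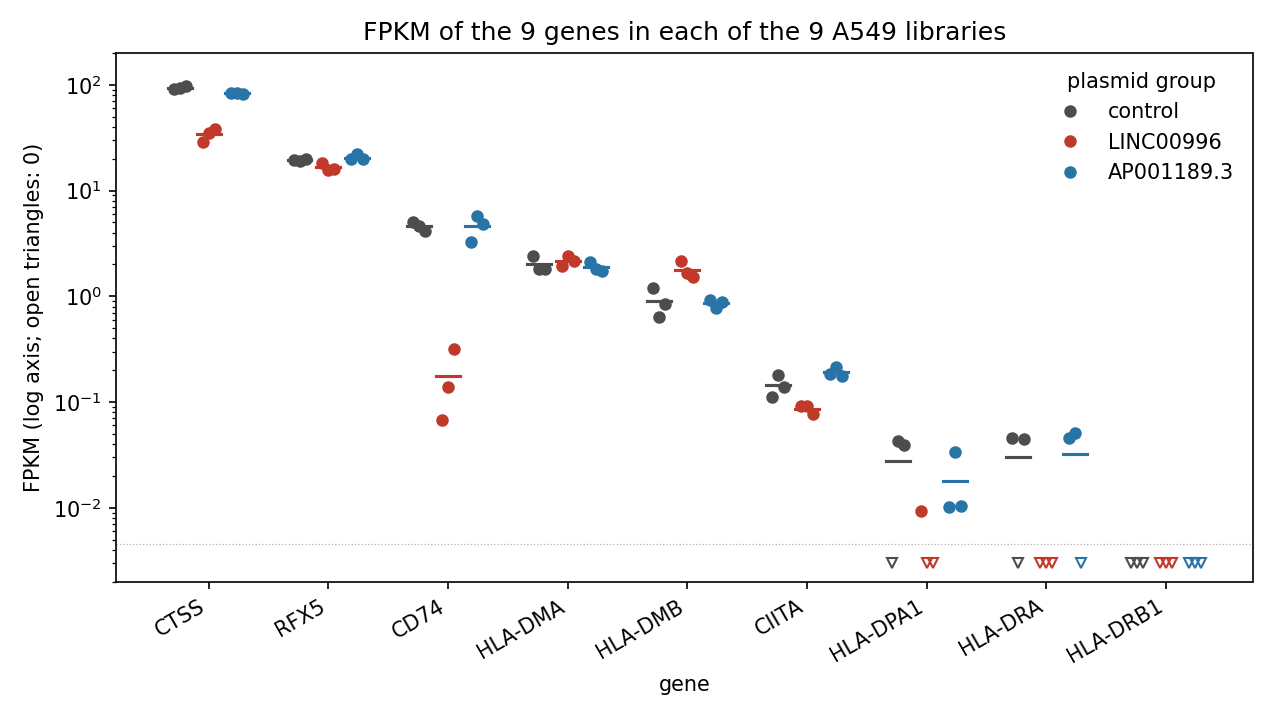
FPKM of the 9 genes in each of the 9 libraries on a log10 axis, with points for libraries, lines for group means and open triangles below the dotted line for libraries listed at 0 (a mean below that line is not drawn). CD74 lies at 0.0677 to 0.321 FPKM in the LINC00996 libraries and at 3.28 to 5.74 FPKM in the other 6, while the class II chains HLA-DRA, HLA-DRB1 and HLA-DPA1 lie at or near 0 in every group.

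CD74 (ENSG00000019582, chr5:150401637-150412929, minus strand, GRCh38) had 275, 238 and 230 counts in the controls, 4, 7 and 19 with LINC00996 and 179, 283 and 253 with AP001189.3. The LINC00996 libraries lay below all 6 others with no overlap, and the control and AP001189.3 libraries overlapped. The 95% Poisson intervals, which cover counting error only, were 1.09 to 10.2 for the library with 4 counts and 11.4 to 29.7 for that with 19, so the spread within the LINC00996 group went beyond counting error. As CPM, CD74 stood at 14.7 ± 1.47 in the control group, 0.564 ± 0.417 in the LINC00996 group and 14.8 ± 3.94 in the AP001189.3 group (SD, n = 3 each). Fewer cells with CD74 RNA and less CD74 RNA per cell cannot be told apart in these libraries of whole cultures.

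The fitted log2 fold change of CD74 was -4.68 ± 0.31 (SE) in LINC00996 against control, a level 25.6-fold lower. This was the 3rd lowest value of 16097 genes tested. It was -5.48 without LINC00996 replicate 3, the library with 19 counts, and -4.27 without LINC00996 replicate 1, the library that stood apart. Against the AP001189.3 group it was -4.68 ± 0.36, the 4th lowest of 16095. In AP001189.3 against control it was -0.001 ± 0.16, and leaving out single libraries moved it between -0.19 and 0.19. No other annotated gene shares exonic bases with CD74 in GENCODE 29.

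The start of CD74 is shown beside those of HLA-DMA and HLA-DMB because these 3 share the Y box core CCAAT, the sequence bound by NF-Y, and had different values in the LINC00996 libraries. RefSeq (GRCh38.p14) held promoter windows of 300 bases for 6 of the 9 genes, in 9 windows. CIITA, HLA-DRA and CTSS were not matched. The windows lie at chr5:150412861-150413160 for CD74, chr6:32953048-32953347 for HLA-DMA and chr6:32940979-32941278 for HLA-DMB, each on the minus strand. They are written 5′ to 3′ along the gene, with CCAAT, or its reverse complement ATTGG, in capitals.
CD74: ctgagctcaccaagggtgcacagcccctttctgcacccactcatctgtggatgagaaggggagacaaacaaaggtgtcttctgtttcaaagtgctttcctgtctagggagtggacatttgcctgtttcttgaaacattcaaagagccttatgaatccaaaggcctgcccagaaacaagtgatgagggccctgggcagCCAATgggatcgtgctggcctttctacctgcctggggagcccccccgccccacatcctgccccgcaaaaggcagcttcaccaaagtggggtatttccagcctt
HLA-DMA: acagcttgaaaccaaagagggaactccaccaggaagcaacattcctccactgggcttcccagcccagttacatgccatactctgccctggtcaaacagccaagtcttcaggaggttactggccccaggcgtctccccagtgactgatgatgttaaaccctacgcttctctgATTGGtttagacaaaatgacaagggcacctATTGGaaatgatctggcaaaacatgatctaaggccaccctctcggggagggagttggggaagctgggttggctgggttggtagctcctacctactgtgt
HLA-DMB: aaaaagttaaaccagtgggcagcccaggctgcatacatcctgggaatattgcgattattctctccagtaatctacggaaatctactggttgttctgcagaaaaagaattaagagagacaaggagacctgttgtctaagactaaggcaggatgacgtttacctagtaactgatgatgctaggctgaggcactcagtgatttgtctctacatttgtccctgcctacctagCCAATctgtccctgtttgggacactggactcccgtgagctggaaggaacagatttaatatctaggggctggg
CCAAT began at position -53 from the start of CD74 and at -22 from that of HLA-DMB. In HLA-DMA it was found on the other strand, at -79 and -49. RFX5 and HLA-DRB1 also held it and HLA-DPA1 did not. Of 35116 RefSeq windows of the same length, 34.6% held it on either strand. The gamma-activated site TTCNNNGAA, held by 7.66% of windows, was in none of the 9 windows. The core of the interferon-stimulated response element, a 10-letter motif held by 3.57% of windows, was in 1 window of RFX5. A match describes letters and is not a measured binding site.

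CIITA (ENSG00000179583), the master transactivator of class II genes, was low in every group, with 40, 60 and 51 counts in the controls, 35, 30 and 30 with LINC00996 and 66, 69 and 61 with AP001189.3. The LINC00996 libraries were below the other 6 without overlap, and the control and AP001189.3 ranges overlapped in CPM. Its mean level was 3.01 ± 0.694 CPM in the control group, 1.81 ± 0.166 CPM with LINC00996 and 4.03 ± 0.410 CPM with AP001189.3. The log2 fold change was -0.73 ± 0.26 (SE) in LINC00996 against control, 0.42 ± 0.22 in AP001189.3 against control and -1.15 ± 0.21 in LINC00996 against AP001189.3. Other annotated genes cover 23.4% of its exonic bases, DEXI among them, and the assignment of reads there is uncertain.

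RFX5, the DNA-binding subunit of the RFX complex at class II promoters, was measured with 1139 to 1606 counts per library. It stood at 90.2, 88.9 and 92.4 CPM in the control libraries, 84.1, 72.2 and 74.2 CPM in the LINC00996 libraries and 92.2, 101 and 91.3 CPM in the AP001189.3 libraries. The LINC00996 libraries again lay below the others, by a small margin next to that of CD74. The log2 fold change was -0.24 ± 0.096 in LINC00996 against control, 0.07 ± 0.059 in AP001189.3 against control and -0.31 ± 0.096 between the lncRNA groups.

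The class II chains that CD74 escorts were at the floor of detection. HLA-DRA, the invariant alpha chain of HLA-DR, had 1, 0 and 1 counts in the controls, 0 in each LINC00996 library and 1, 1 and 0 with AP001189.3. HLA-DPA1, the alpha chain of HLA-DP, had 0, 4 and 4 counts, then 1, 0 and 0, then 1, 3 and 1 in the same order of groups. HLA-DRB1, the beta chain of HLA-DR, had 0 counts in all 9 libraries, which allows up to 3 counts (a one-sided limit) or 0.166 to 0.196 CPM per library, and its near-identical copies make a low value uncertain, although HLA-DRB5 was also at 0. Over the 9 chain genes looked at, with HLA-DRB5, HLA-DPB1, HLA-DQA1, HLA-DQA2, HLA-DQB1 and HLA-DQB2 added, there were 20 counts in the 9 libraries together, against 1488 for CD74. The highest single count was 4, and 5 of these genes had none. Summed over these genes, the libraries held 1, 4 and 5 counts in control, 1, 0 and 0 with LINC00996 and 3, 4 and 2 with AP001189.3. None of the chain genes passed the filter, and a difference between groups in the chains was not tested.

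HLA-DMA and HLA-DMB encode the alpha and beta chains of HLA-DM, the endosomal dimer that swaps the CD74 remnant for peptide. HLA-DMA had 105, 74 and 81 counts in the controls, 91, 97 and 102 with LINC00996 and 91, 71 and 73 with AP001189.3. The 3 groups overlapped in CPM. HLA-DMB had 96, 48 and 69 counts in the controls, 187, 122 and 131 with LINC00996 and 74, 56 and 68 with AP001189.3. The LINC00996 libraries were above the other 6 without overlap, which made HLA-DMB the single gene of the 9 that was higher in this group in every library.

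The mean level of HLA-DMB was 4.20 ± 1.34 CPM in the control group, 8.35 ± 1.66 CPM with LINC00996 and 4.04 ± 0.371 CPM with AP001189.3 (SD, n = 3 each). The fit gave a log2 difference of 0.99 ± 0.23 (SE) in LINC00996 against control, the 380th highest of 16097, and 1.04 ± 0.18 against AP001189.3. It was 0.81 without LINC00996 replicate 1, which held the highest value of 10.2 CPM. For HLA-DMA the log2 fold change was 0.11 ± 0.19 in LINC00996 against control and 0.20 ± 0.17 against AP001189.3. In AP001189.3 against control it was -0.10 ± 0.18 for HLA-DMA and -0.06 ± 0.22 for HLA-DMB. A readthrough gene annotated over both, AL645941.2, covers 9.41% of the exonic bases of HLA-DMB and had 0 counts in every library.

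CTSS encodes cathepsin S, the protease that completes the trimming of CD74 in antigen-presenting cells. The controls held 6623, 6371 and 7165 counts, the LINC00996 libraries 2265, 2370 and 3027 and the AP001189.3 libraries 6082, 5433 and 5776. At these counts the counting error is small, and the 3 groups were separate in CPM, with means of 399 ± 11.6 in control, 146 ± 20.2 with LINC00996 and 354 ± 4.71 with AP001189.3. The log2 fold change was -1.45 ± 0.11 in LINC00996 against control, the 233rd lowest of 16097, and it lay between -1.54 and -1.35 when single libraries were left out. It was -0.17 ± 0.048 in AP001189.3 against control and -1.28 ± 0.11 between the lncRNA groups. No other annotated gene shares exonic bases with CTSS.

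Over the 6 genes that passed the filter, 4 had LINC00996 libraries wholly below the control libraries (CD74, CTSS, CIITA and RFX5) and 1 wholly above (HLA-DMB). Of all genes tested in this comparison, 20.7% were wholly below and 19.8% wholly above, 40.4% in all. CTSS was wholly below in AP001189.3 against control, beside 16.7% of all genes, and the other 5 overlapped. The LINC00996 libraries lay wholly below the AP001189.3 libraries for the 4 genes named above (19.7% of all genes) and wholly above for HLA-DMB (19.5%), 39.2% of all genes doing either. The genes were chosen with these contrasts in view, and CD74 passed the filter through the groups where it is high, so nothing is read from those counts. Of all genes, 22.3%, 19.8% and 21.4% passed an adjusted p of 0.05 in the 3 comparisons (edgeR), and no such call is used for the 9 genes. The median log2 fold change of all genes was 0.01, -0.001 and 0.02 in the 3 comparisons.

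**Figure D2:**
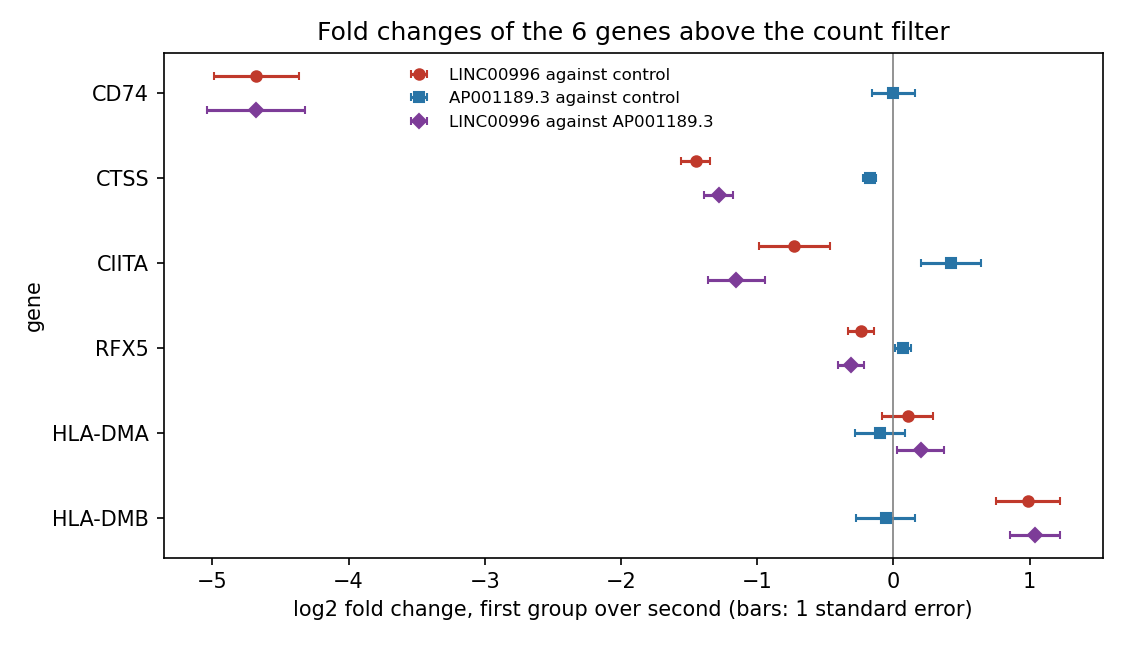
Log2 fold change of the 6 genes that passed the filter in the 3 comparisons, with bars of 1 standard error (edgeR, 6 libraries per comparison). CD74 lies at -4.68 in both comparisons of the LINC00996 group and at -0.001 in AP001189.3 against control, and HLA-DMB lies above 0 in both comparisons of the LINC00996 group.

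The remaining genes of the pathway were taken from a list of 36 by role, of which 26 passed the filter in each comparison. In LINC00996 against control 9 of the 26 fell and 2 rose (edgeR's quasi-likelihood test, adjusted over all genes tested), with 11.6% of all genes lower and 10.7% higher, and the list's median log2 fold change was -0.20. The 10 that did not pass were the 6 other class II chains, HLA-DOA, IFI30, DDT and CXCR2. They include the lysosomal thiol reductase gene IFI30, a classical target of interferon-gamma. Its highest count in any library was 6, and it shares 40.2% of its exonic bases with another gene. Other genes cover 37.8% of the exonic bases of DDT, which had 0 to 3 counts per library.

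The genes of the interferon-gamma signal to CIITA, its inhibitor SOCS1 among them, were lower with LINC00996. Of these 7 genes, 5 were called lower and 0 higher, beside 11.6% and 10.7% of all genes. Their median log2 fold change was -0.76. IRF1, a transcription factor that acts on the inducible CIITA promoter, stood at 186, 177 and 196 CPM in the control libraries and 99.6, 89.9 and 89.3 CPM in the LINC00996 libraries, 2.01-fold lower (adjusted p = 2.07e-05, edgeR). The receptor chains IFNGR2 and IFNGR1 fell by 0.96 and 0.72 on the log2 scale (adjusted p = 2.9e-05 and 0.000317, edgeR), and the receptor's kinase JAK2 fell by 0.85 (adjusted p = 0.00172, edgeR). SOCS1, a feedback inhibitor of the same signal, fell by 0.76 (adjusted p = 0.0257, edgeR), a call that was lost without control replicate 1 (adjusted p = 0.109, edgeR), control replicate 2 or LINC00996 replicate 3. JAK1, the other kinase of the receptor, did not pass the test, at a log2 fold change of -0.19, with its LINC00996 libraries below the control libraries. Other genes cover 22% of the exonic bases of IRF1 and 12.8% of those of IFNGR2.

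With AP001189.3 the calls among these 7 genes went both ways. IRF1 stood at 276, 264 and 282 CPM and rose by 0.56 against control (adjusted p = 2.54e-08, edgeR), and SOCS1 rose by 0.89 (adjusted p = 0.000158, edgeR), while IFNGR1 and IFNGR2 were called lower. Both lower calls were lost in the fit of all 9 libraries (adjusted p = 0.293 and 0.25, edgeR) and without control replicate 2, AP001189.3 replicate 2 or AP001189.3 replicate 3, and that of IFNGR2 also by DESeq2 (adjusted p = 0.062) and without control replicate 1. The difference between the lncRNA groups was tested directly, and IRF1 and SOCS1 were lower with LINC00996, at log2 fold changes of -1.57 and -1.66 (adjusted p = 6.55e-07 and 0.000115, edgeR). The level of IRF1 ran in the order LINC00996, control, AP001189.3 with no overlap between groups, as CIITA did in its means.

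Among the endosomal proteases, LGMN and CTSB fell and CTSD and CTSV rose with LINC00996, of 7 tested, beside 11.6% and 10.7% of all genes. LGMN, or asparaginyl endopeptidase, which makes early cuts in CD74, stood at 227, 217 and 217 CPM in the control libraries and 122, 128 and 124 CPM with LINC00996, a log2 fold change of -0.82 (adjusted p = 4.39e-05, edgeR). The libraries of each group were close together and the groups far apart. CTSV, or cathepsin V, rose by 0.79 (adjusted p = 0.00395, edgeR). CTSD, or cathepsin D, rose by 0.47 (adjusted p = 0.0302, edgeR), was not called without control replicate 2 or control replicate 3 (adjusted p = 0.112 and 0.145, edgeR), and shares 52.7% of its exonic bases with other genes. CTSL and SPPL2A, a protease that clears the membrane-bound end of CD74, were not called in LINC00996 against control, but CTSL was lower by DESeq2 (adjusted p = 0.0424) and under 3 edgeR alternatives.

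HLA-DOB, a chain of the HLA-DM inhibitor HLA-DO, had 16, 12 and 34 counts in the controls and 12, 5 and 6 with LINC00996, and its log2 fold change of -1.47 was at the threshold (adjusted p = 0.0498, edgeR). The call was lost under DESeq2 (adjusted p = 0.0854), with library size alone (adjusted p = 0.0528, edgeR) and when any library other than LINC00996 replicate 1 was left out (adjusted p up to 0.249, edgeR), and another gene covers 29.7% of its exonic bases. Its partner HLA-DOA had 0 counts in every library. None of the 6 factors that bind class II promoters beside RFX5 was called with LINC00996 by edgeR or DESeq2. Of all genes, 22.3% were called by edgeR. RFXANK and RFXAP, the other subunits of the RFX complex, were called higher under some edgeR alternatives. RFXANK passed in 5 of them (adjusted p from 0.0133 to 0.044), and RFXAP with the replicate block (0.0358) and without control replicate 3 (0.0216). In AP001189.3 against control RFXANK was higher by 0.55 (adjusted p = 0.000282, edgeR), a call not made in the fit of all 9 libraries (adjusted p = 0.0558), beside a log2 fold change of 0.47 with LINC00996. Other genes cover 23.3% of its exonic bases.

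Of the genes that act with CD74 as a surface receptor, CXCR4 fell with LINC00996. It stood at 6.53, 5.54 and 4.26 CPM in the control libraries and 2.08, 1.27 and 2.11 CPM with LINC00996, a log2 fold change of -1.57 (adjusted p = 0.00125, edgeR). CD44, the co-receptor of CD74 for MIF, averaged 857 CPM with LINC00996 and 1015 CPM in control and was not called in the 6-library fit, but was lower under 4 alternatives, among them the replicate block (adjusted p = 0.0418, edgeR). MIF had 4 to 22 counts per library, with 61.9% of its exonic bases shared with other genes. The ubiquitin ligases MARCHF1 and MARCHF8, which remove class II molecules from the surface, were not called with LINC00996.

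In AP001189.3 against control 5 of the 26 fell (CTSB, IFNGR1, IFNGR2, MARCHF1 and MARCHF8) and 4 rose (RFXANK, CTSD, IRF1 and SOCS1), beside 8.49% and 11.4% of all genes, with a median log2 fold change of 0.01. The count of 5 became 0 in a fit of all 9 libraries and also without control replicate 2, AP001189.3 replicate 2 or AP001189.3 replicate 3. In LINC00996 against AP001189.3, 11 of 26 fell and 3 rose (RFXAP, CTSV and CTSH), beside 12.1% and 9.38% of all genes. The 11 became 7 without AP001189.3 replicate 2 or AP001189.3 replicate 3, where CTSL, CTSB, CD44 and HLA-DOB were not called (adjusted p from 0.0507 to 0.174, edgeR), and 8 with library size alone, where CTSL, CTSB and CD44 were not. The calls of RFXAP and CTSH were lost in every fit that left out 1 library other than LINC00996 replicate 1 (adjusted p up to 0.137 and 0.169, edgeR), which left 1 gene higher, CTSV. RFXAP was also not called by DESeq2 (adjusted p = 0.0867) or CTSH with the replicate block (adjusted p = 0.052). The comparisons share libraries, so their counts are not independent of each other.

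**Figure D3:**
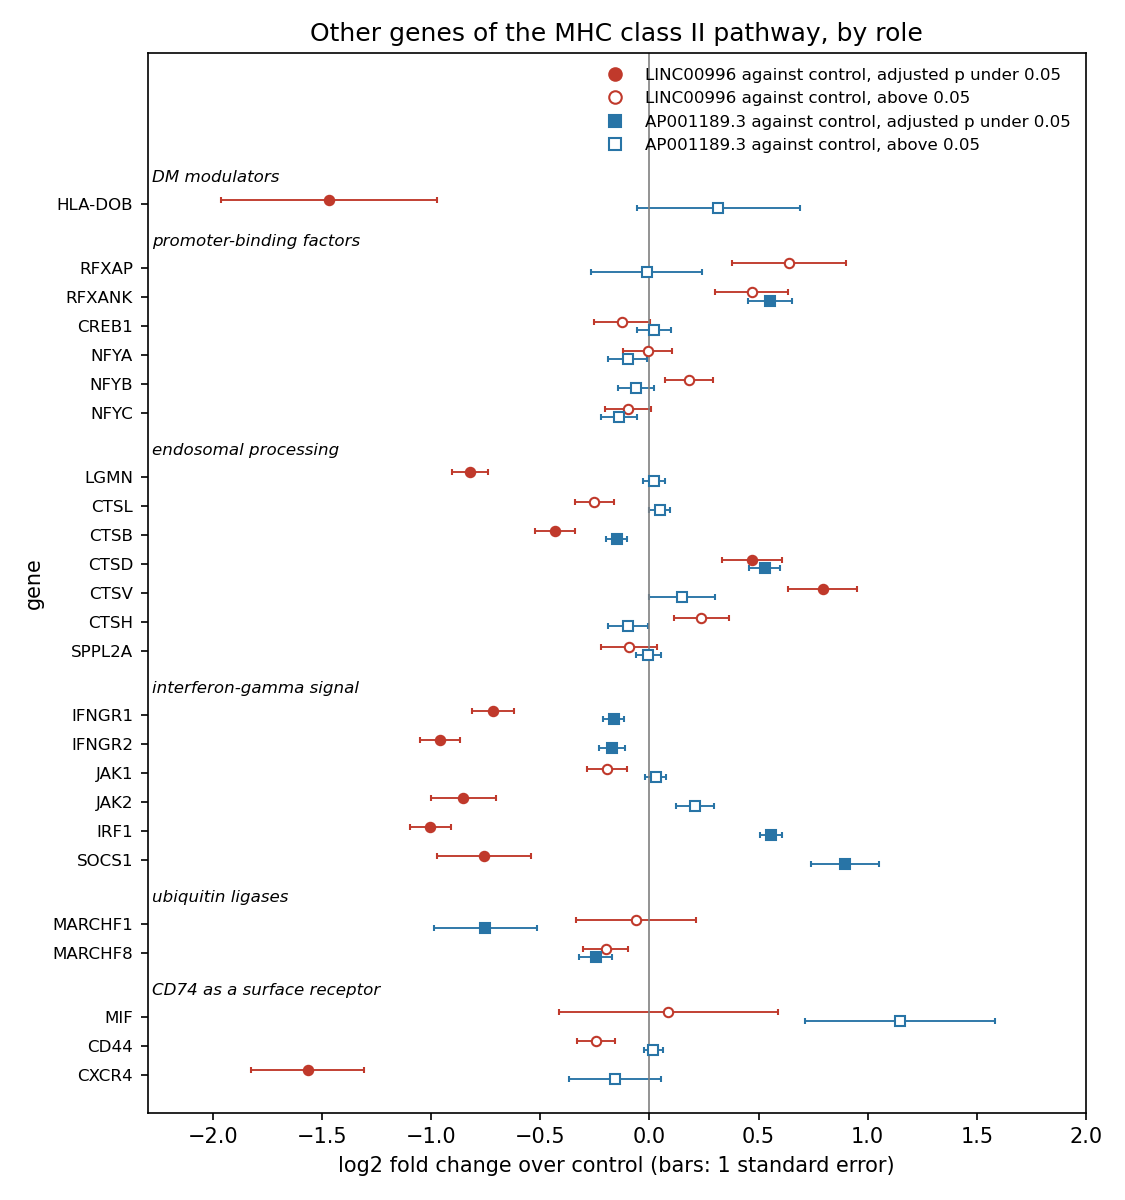
Log2 fold change of the other pathway genes that passed the filter (26, of which 1 is not drawn), grouped by role, in LINC00996 against control (circles) and AP001189.3 against control (squares), with bars of 1 standard error and filled symbols for genes at an adjusted p under 0.05 (edgeR). With LINC00996 against control, 5 of the 7 interferon-gamma signal genes are called lower (11.6% of all genes are) and 0 of the 6 promoter-binding factors are called in either direction (22.3% of all genes are), though RFXANK and RFXAP pass under some alternatives.

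The genes whose pattern over the 9 libraries was most like that of CD74 were found by the smallest root mean square difference of centred log2 CPM among 16559 genes. These were DUOXA2 (0.552), CXCL10 (0.651), ACTN2 (0.657), CXCL11 (0.662) and DUOX2 (0.692). CXCL10 and CXCL11 encode chemokines known as targets of interferon-gamma, DUOX2 and its maturation factor DUOXA2 form a hydrogen peroxide producing oxidase, and ACTN2 encodes a muscle alpha-actinin. CXCL10 stood at 36.5, 36.7 and 34.9 CPM in the control libraries, 3.07, 3.49 and 5.46 CPM with LINC00996 and 35.6, 55.6 and 58.6 CPM with AP001189.3.

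The other genes of the pathway were less like CD74 in this measure. CTSS came in rank 210, CIITA in rank 736 and RFX5 in rank 3509 of 16559, while HLA-DMA was in rank 10556 and HLA-DMB in rank 16378, near the far end. The ranking of the closest genes depended on the prior count added before the log. With 0.5 in place of 2, 2 of the 5 remained, ACTN2 and DUOXA2, and CCDC144NL, GPR84 and KRT14 took the other places. DUOXA2, ACTN2 and CD74 are near the floor in the LINC00996 libraries, where 1 count moves the log value.

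**Figure D4:**
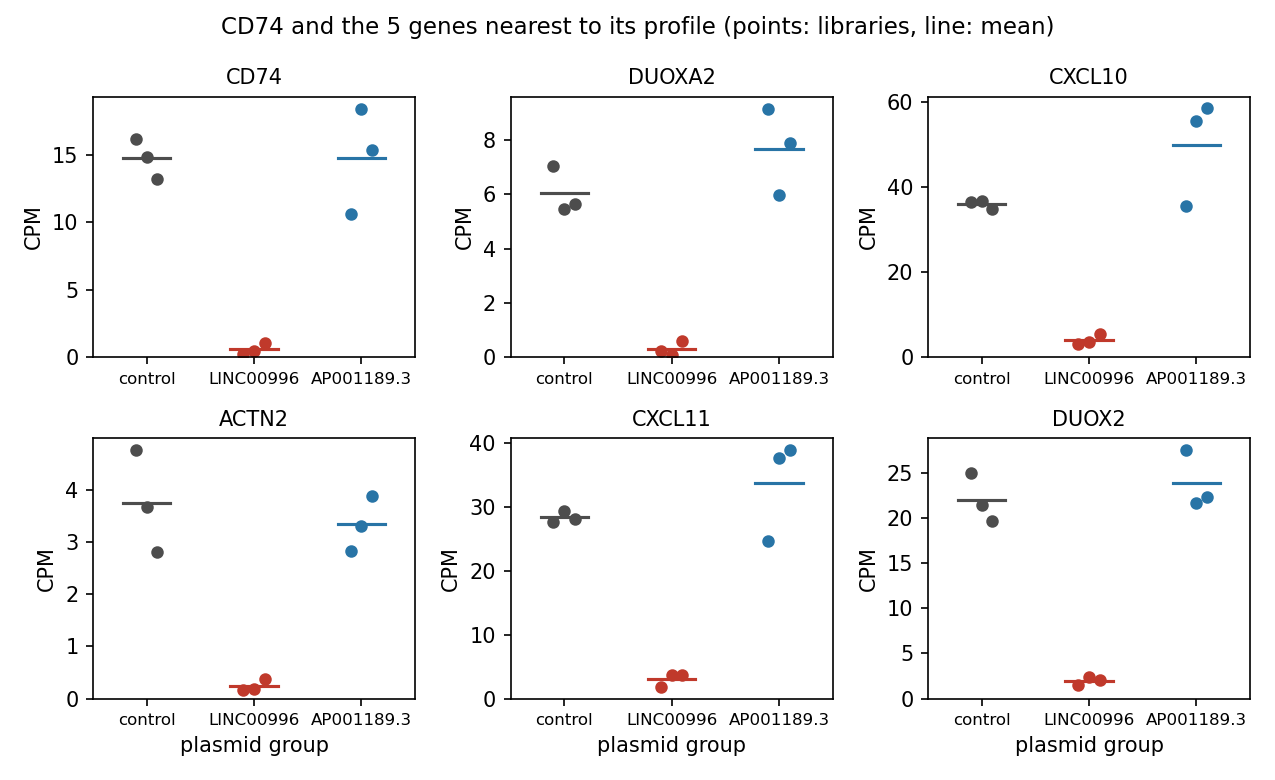
CPM (linear axes from 0, TMM scaling) of CD74 and the 5 genes with the smallest root mean square difference from it, with a point for each of the 9 libraries and a line for each group mean. In each of the 6 panels the 3 LINC00996 libraries lie below the other 6, and CD74 averages 0.564 CPM there against 14.7 CPM in the control group.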

How the data were processed

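RNA-seq of 9 A549 libraries was analysed, grouped by the plasmid in their titles. Per the study's methods, HISAT2 2.0.5 aligned the 150 bp reads and featureCounts 1.5.0-p3 counted them, and the strand and overlap settings are not given in the sources used here. The authors deposited raw gene counts and FPKM values, which scale counts for gene length and sequencing depth. Scaling the raw counts by gene length and by their sum per library did not give the same FPKM. The authors' values differed from this by a fixed factor within each library. It was 0.990 to 0.997 in control, 0.961 to 0.977 with LINC00996 and 1.007 to 1.016 with AP001189.3, and its cause was not tested. The gene positions equal those of GENCODE 29 (GRCh38). For 12 genes the symbol is held as a date, and MARCHF1 and MARCHF8 were matched by identifier.

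Each comparison was fitted on its 6 libraries with edgeR 4.0.16 in R 4.3.3 (filterByExpr, TMM, robust quasi-likelihood test, Benjamini-Hochberg adjustment over all genes tested, threshold 0.05). CPM used TMM factors, and log2 CPM for the likeness to CD74 a prior count of 2. The procedure was tested on simulated data. Depth was 15272450 to 18125447 counts, and intervals cover counting error only. The genes named were the 9 listed, 36 pathway genes by role, the 2 lncRNAs, cell type markers and the 5 genes most like CD74. The values of 1 listed pathway gene and 1 listed marker are not reported here, though the counts over their lists include them. These genes and lists were chosen with earlier results of these data known. Alternatives were DESeq2 1.42.0, library size alone, other filters, all 9 libraries in 1 fit, each library left out, the replicate number as a block and a prior count of 0.5.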

Additional observations from a re-analysis of the deposited data

How the results depend on the processing

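CD74 was lower in LINC00996 against control and against AP001189.3 under each alternative that gave a value, from -5.48 (without LINC00996 replicate 3) to -4.27 (without LINC00996 replicate 1) in both, and requiring 10 counts in each library left it out. In AP001189.3 against control it ranged from -0.19 to 0.19. With single libraries left out, genes called ranged from 1925 to 5481 in LINC00996 against control, from 1914 to 3598 in AP001189.3 against control and from 1840 to 6828 between the lncRNA groups. In the first, the 3 fits without a control library gave 1925 to 2162 and the fit without LINC00996 replicate 1 gave 5481. In the second, the low values came without control replicate 2 (1974) and AP001189.3 replicate 2 (1914). In the last, LINC00996 replicate 2 and each AP001189.3 replicate left 1840 to 2125 when omitted, and 6828 came without LINC00996 replicate 1. Pathway genes called higher ranged from 1 to 3, 4 to 5 and 1 to 5, and those called lower from 7 to 12, 0 to 4 and 7 to 16, in the same order, and the lone 1 in LINC00996 against control came without control replicate 2. In AP001189.3 against control, 3 pathway genes were called lower by DESeq2, and the fit of all 9 libraries gave 437 genes called and 0 pathway genes lower. The cause of these moves was not tested. Same-numbered libraries of different groups correlated from -0.02 to 0.15 in their deviations, not every library correlated best with its own number, and the numbers were not taken to pair the samples. With the replicate block, 4500 genes were called in LINC00996 against control, 12 pathway genes lower and 4 higher, and CD74 was at -4.68. At 0 to 4 counts per library, depth limits what can be said of HLA-DRA, HLA-DRB1 and HLA-DPA1.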

Other observations

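The annotated genes within 100000 bases of CD74 and HLA-DMB were read after the values of these 2 genes were known. Around CD74, 4 genes passed the filter in LINC00996 against control, and 0 were called lower and 1 higher, beside 11.6% and 10.7% of all genes. RPS14, a ribosomal protein gene, rose by 0.51 on the log2 scale (adjusted p = 0.00317, edgeR). TCOF1, which ends next to CD74, had a log2 fold change of 0.21 (adjusted p = 0.283, edgeR), and NDST1 of -0.19 (adjusted p = 0.177, edgeR).

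Around HLA-DMB, 6 genes other than HLA-DMA passed the filter, and 2 were called lower and 0 higher, beside 11.6% and 10.7% of all genes. These were TAP1 and TAP2, which encode the peptide transporter of the MHC class I pathway. TAP1 averaged 441 CPM over the controls and 228 CPM with LINC00996, and fell by 0.95 on the log2 scale (adjusted p = 3.94e-05, edgeR). TAP2 fell by 0.62 (adjusted p = 0.00115, edgeR). The immunoproteasome subunits PSMB8 and PSMB9, encoded beside them, had log2 fold changes of 0.02 and -0.19 and did not pass the test. HLA-DMB, described above without a test, was at 0.99 in the same fit.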
